A study of Mus musculus with 24 samples.

Results

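The genes described here carry material into, along and out of the photoreceptor cilium, and they were followed in mouse retinas and eye cups after induction of human *PRDM13*. Members were taken by symbol from the protein-coding genes of the table: those named Ift, Bbs or Nphp with a number, plus *Ttc8*, *Arl6*, *Mkks*, *Rpgr*, *Rpgrip1*, *Rpgrip1l*, *Cep290*, *Iqcb1*, *Rp2*, *Arl3*, *Arl13b*, *Spata7*, *Lca5*, *Kif3a*, *Kif3b*, *Kif17*, *Unc119* and *Pde6d*. This gave 43 of 56748 genes, of which 21970 are protein coding. By role they were 3 genes of intraflagellar transport complex A (IFT-A), 7 of the core and 4 of the peripheral part of complex B (IFT-B), 8 of the BBSome with *Arl6*, 3 of the BBS chaperonins, 10 of the connecting cilium, 3 kinesin motor genes and 5 genes that carry lipid-modified cargo. Subunits of these complexes that go by other symbols, such as *Wdr19* or *Ttc21b*, lie outside the rule and were counted separately.

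The study sequenced polyA RNA from the neural retina and from the remaining eye cup, which holds the retinal pigment epithelium, choroid and sclera. PRDM13-OE mice were heterozygous for a knock-in at *Rosa26* on a C57BL/6J background, in which the ubiquitous EF-1α promoter drives a reverse tetracycline transactivator and a TRE3G promoter drives tagged human *PRDM13*. Wildtype littermates lacked the whole knock-in, the transactivator included. Mice of each genotype were untreated or received 2 mg/ml doxycycline (dox) with 10% sucrose in their drinking water for 72 hours, beginning in young adulthood, which made 8 groups of 3 libraries from 12 mice, and untreated mice are not described as given sucrose. Because the promoter is ubiquitous, induction was not limited to photoreceptors, and in bulk tissue fewer cells of a type and less RNA per cell cannot be told apart.

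A photoreceptor's outer segment is a modified primary cilium, joined to the cell body by a narrow connecting cilium through which all of its proteins must pass. IFT trains move cargo along the axoneme, with kinesin-2 motors driving the outward leg and IFT-A needed for the return. The BBSome, assembled with the help of chaperonin-like proteins, removes and sorts membrane proteins. Proteins of the connecting cilium gate entry, and *Unc119* and *Pde6d* encode carriers that hold the lipid tails of transducin and of prenylated proteins and release them when bound by the small GTPase ARL3. Inherited defects of many of these genes cause retinal dystrophy.

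Total counts were between 15825059 and 24908314 per library. All 43 members passed the filter of 10 summed counts in every comparison, and all 14 rod markers were above 0 in every retina and every eye cup. Levels within a tissue are given as CPM, read counts scaled by library size with TMM factors. Mouse *Prdm13* was at 52.8 to 60.3 CPM in PRDM13-OE dox retinas and 46.7 to 50.9 in wildtype dox retinas, and since how far reads of the human gene map to it is not known, it is no check of the induction. Lens crystallin counts set wildtype dox retinas 1 and 2 apart: the 16 genes summed to 12847, 5675 and 166 CPM in wildtype dox retinas 1, 2 and 3, against 31 to 55 in PRDM13-OE dox retinas and 42 to 1012 in the untreated retinas. The eye cups held varying amounts of rod RNA, with rod markers summing to between 3935 and 51850 CPM. Bipolar cell markers summed to between 580 and 1248 CPM and Müller glia markers to between 7163 and 17825. How much retina each eye cup held was not tested.

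In untreated wildtype retina *Unc119*, *Arl3* and *Pde6d*, of the group that carries lipid-modified cargo, were the most abundant members. Levels of different genes are compared here in FPKM, which divide the fragment count by gene length and library size. *Unc119* stood at 828 ± 15.7 FPKM (SD, n = 3), *Arl3* at 86.3 ± 5.02 and *Pde6d* at 64.6 ± 3.48, and none of these overlapped its neighbor in the order. *Rp2*, which encodes the GTPase-activating protein for ARL3, was the lowest of that group at 3.49 ± 0.400 FPKM, and *Arl13b* was at 10.1 ± 0.536.

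The BBSome genes lay close together, with *Arl6*, the GTPase that recruits it to membranes, at 43.8 ± 1.99 FPKM and the 7 others between 16.7 ± 1.63 for *Bbs1* and 21.5 ± 1.24 for *Bbs7*. The kinesin-2 subunit gene *Kif3a* lay in the same range at 18.8 ± 0.787 FPKM, whereas *Kif17*, the homodimeric kinesin-2, was at 1.02 ± 0.112. IFT genes ran from 23.7 ± 0.738 FPKM for *Ift20*, which links the train to Golgi-derived vesicles, to 3.12 ± 0.177 for *Ift88*. *Ift43* was the highest of the IFT-A genes at 11.6 ± 1.01 FPKM and *Ift140* the lowest at 4.76 ± 0.214. In IFT-B, *Ift22* was the highest core gene at 11.3 ± 0.599 FPKM and *Ift80* the lowest peripheral gene at 5.19 ± 0.278.

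The connecting cilium genes spanned a wide range. *Rpgrip1*, which anchors RPGR at the connecting cilium, was the highest of them at 14.0 ± 3.11 FPKM, with 13.5, 17.3 and 11.2 in the 3 retinas, and *Lca5*, which encodes lebercilin, was at 10.3 ± 1.28. *Cep290*, whose protein links the microtubules of the connecting cilium to its membrane, was at 4.66 ± 0.343 FPKM. *Spata7* (1.41 ± 0.036) and *Rpgr* (1.41 ± 0.103) could not be ordered against each other. Among the chaperonins, *Bbs12* was at 6.14 ± 0.575 FPKM and *Bbs10* at 3.77 ± 0.135, and most neighbors in the middle of the order overlapped.

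**Figure D1:**
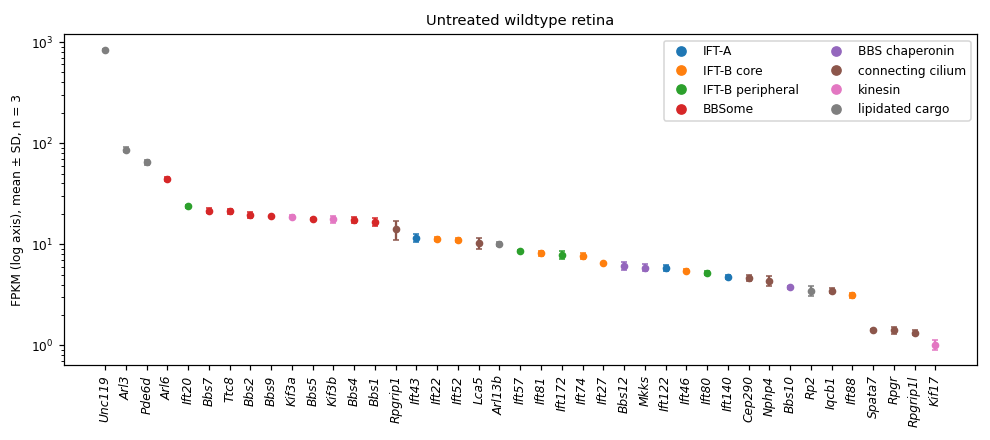
FPKM of 41 members in untreated wildtype retina, on a log axis, as mean ± SD over 3 retinas and colored by role. *Unc119* at 828 FPKM stands alone, the BBSome genes other than *Arl6* lie close together between 16.7 and 21.5 FPKM, and *Kif17* at 1.02 is the lowest plotted.

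The central comparison asked how these genes differed between PRDM13-OE and wildtype retinas when both received dox. Differences were small: 7 members rose and 1 fell at an adjusted p under 0.05 (edgeR quasi-likelihood test, Benjamini-Hochberg over 20560 genes), and 0 passed the study's rule, which also asks for a log2-fold change above 1 or below -1. *Bbs12*, *Nphp4*, *Ift27*, *Pde6d*, *Bbs5* and *Arl3* were among those higher in PRDM13-OE retinas, by 16.4% to 46.1%, and *Unc119* was lower. Of all genes tested, 5.01% were higher and 7.51% lower at the same threshold, against 16.3% and 2.33% of the members, and 0.905% and 1.5% of all genes passed the study's rule upward and downward. The median log2-fold change was 0.05 over the members and 0.006 over all genes. At an unadjusted p under 0.05, 14 members were higher and 3 lower, beside 26.6% of all genes in either direction, and by DESeq2 7 rose and 1 fell after adjustment. The interval of 2 SE around the log2-fold change stayed between -1 and 1 for 42 of 43 members.

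Beside these values, rod markers summed to 58711 to 65905 CPM in PRDM13-OE dox retinas and 76509 to 79229 in wildtype dox retinas, with 9 of 14 genes lower and 0 higher. Cone markers summed to 919 to 999 CPM against 1591 to 1656, with 8 of 12 genes lower and 2 higher. Red blood cell genes summed to 1 CPM in each PRDM13-OE dox retina against 31 to 78 in wildtype dox retinas, with 5 of 5 lower. Endothelial markers summed to 123 to 146 CPM against 278 to 297, with 3 of 5 lower and 0 higher, and pigment epithelium markers to 183 to 191 against 219 to 255, with 4 of 10 lower and 0 higher. Bipolar cell markers summed to 1314 to 1445 CPM against 1513 to 1603, with 2 of 8 higher and 2 lower, and Müller glia markers to 7134 to 7486 against 7320 to 7394, with 2 of 6 higher and 4 lower. The part of these cell types in the member values was not tested. With the lens crystallin level as a covariate over 12 retinas, 0 members rose and 0 fell, beside 0.55% and 1.44% of all genes. The median log2-fold change of the members was then -0.003, with 21 above 0 and 22 below, against 0.023 over all genes. Lens sums did not overlap between the compared groups, at 31 to 55 CPM and 166 to 12847 CPM. This fit therefore cannot fully separate lens RNA from genotype. Without wildtype dox retinas 1 and 2, which held the most lens RNA, 2 rose (*Arl3* and *Ift57*) and 0 fell, beside 1.06% of all genes higher, with the lone wildtype dox retina assumed to vary like the other groups.

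**Figure D2:**
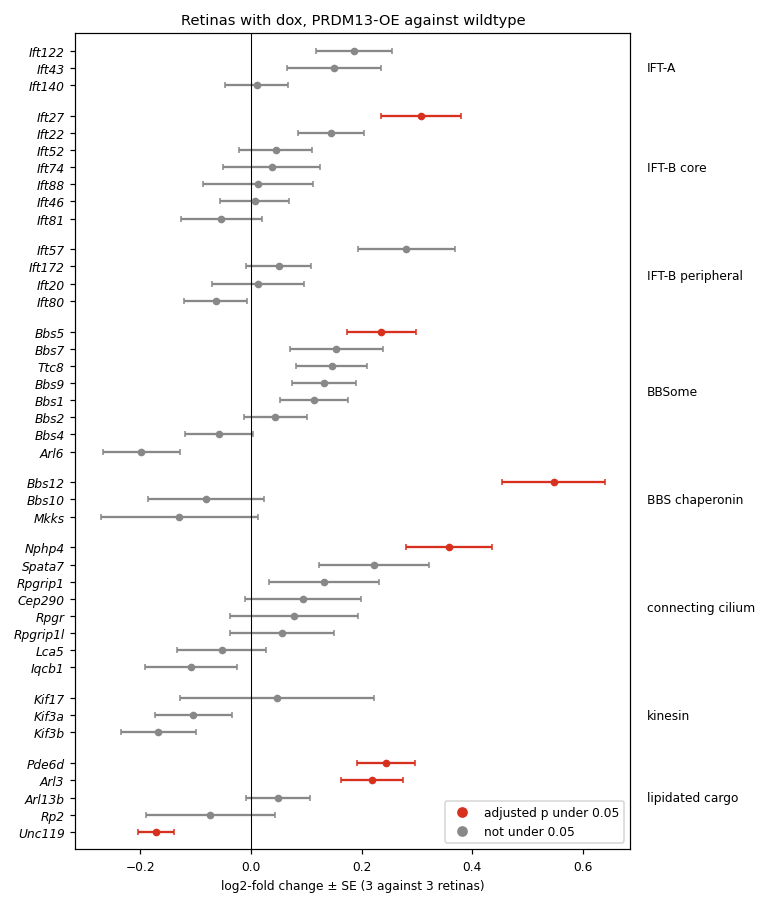
log2-fold change of 41 members between PRDM13-OE dox and wildtype dox retinas, with its SE (3 against 3 retinas), grouped by role, red where the adjusted p was under 0.05. Red points lie between -0.17 for *Unc119* and 0.55 for *Bbs12*.

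The carriers of lipid-modified cargo split in direction. *Unc119*, whose protein carries the acylated alpha subunit of transducin, was at 1921, 1906 and 1966 CPM in PRDM13-OE dox retinas and at 2178, 2232 and 2085 in wildtype dox retinas. The groups did not overlap, and the log2-fold change was -0.17 ± 0.03 (SE, adjusted p = 0.0044). Scaling by library size in place of TMM lifted the median of all genes to 0.095 and that of the members to 0.139. Under it 14 members rose (beside 10.6% of all genes), 0 fell and *Unc119* was at -0.08, with an adjusted p of 0.099.

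*Pde6d*, which encodes the carrier of prenylated proteins such as the phosphodiesterase subunits, was at 186, 188 and 173 CPM in PRDM13-OE dox retinas and 153, 152 and 155 in wildtype dox retinas, a log2-fold change of 0.24 ± 0.05 (adjusted p = 0.010). *Arl3*, the GTPase that releases cargo from both carriers, was at 259, 266 and 277 CPM against 237, 238 and 210, a log2-fold change of 0.22 ± 0.06 (adjusted p = 0.025). This call held in 2 of the 6 fits that left out a retina, with the log2-fold change between 0.17 and 0.25 and the adjusted p up to 0.11. Each PRDM13-OE dox retina was above each wildtype dox retina for both genes. *Arl13b*, the exchange factor that activates ARL3, and *Rp2* did not pass the test, at 0.05 ± 0.06 and -0.07 ± 0.12.

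Of the 3 BBS chaperonin genes, *Bbs12* rose and the others did not pass. *Bbs12* (chromosome 3, 37366703 to 37375602, GRCm39) had 17.9, 20.4 and 20.2 CPM in PRDM13-OE dox retinas and 12.4, 14.2 and 13.2 in wildtype dox retinas, with a log2-fold change of 0.55 ± 0.09 (adjusted p = 0.0026). Its span overlaps *Cetn4* on the opposite strand, whose own difference was 0.31 ± 0.14 (adjusted p = 0.19), and whether the counting used strand is not given in the sources used here, so reads of the 2 genes may be shared. *Mkks* was at -0.13 ± 0.14 and *Bbs10* at -0.08 ± 0.10.

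In the BBSome, 1 of 8 genes rose. *Bbs5*, a membrane-binding subunit, was at 48.3, 49.9 and 49.1 CPM in PRDM13-OE dox retinas and 40.5, 40.1 and 43.9 in wildtype dox retinas, a log2-fold change of 0.24 ± 0.06 (adjusted p = 0.030). The call held in 1 of the 6 fits that left out a retina (without wildtype dox retina 3, adjusted p = 0.014), with the log2-fold change between 0.21 and 0.29 and the adjusted p up to 0.10. *Bbs1*, which binds ARL6, was at 0.11 ± 0.06, and the group ran from -0.20 ± 0.07 for *Arl6* to the value of *Bbs5*.

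The connecting cilium group had 2 of 10 genes higher and 0 lower. *Nphp4*, which encodes a transition zone scaffold, was at 32.0, 35.0 and 30.6 CPM in PRDM13-OE dox retinas and 27.1, 25.0 and 23.7 in wildtype dox retinas, a log2-fold change of 0.36 ± 0.08 (adjusted p = 0.010). The groups did not overlap. The span of *Nphp4* overlaps *Kcnab2* on the opposite strand, which was at -0.12 ± 0.04 (adjusted p = 0.077).

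Of the other genes of this group, *Cep290* and *Rpgrip1* did not pass. *Cep290* was at 47.3, 62.6 and 54.4 CPM in PRDM13-OE dox retinas and 44.5, 54.1 and 54.7 in wildtype dox retinas, a log2-fold change of 0.09 ± 0.10. *Rpgrip1* was at 128, 165 and 176 CPM against 134, 141 and 151, a log2-fold change of 0.13 ± 0.10. These groups overlapped. *Rpgr*, *Lca5* and *Spata7* had log2-fold changes of 0.08 ± 0.12, -0.05 ± 0.08 and 0.22 ± 0.10.

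Of the 14 IFT genes, *Ift27* rose and 0 fell. *Ift27*, a small GTPase of the IFT-B core that also takes part in BBSome exit, was at 26.8, 25.6 and 24.6 CPM in PRDM13-OE dox retinas and 20.3, 20.6 and 21.0 in wildtype dox retinas, a log2-fold change of 0.31 ± 0.07 (adjusted p = 0.016). The groups did not overlap, and the call held in 2 of the 6 fits that left out a retina, with the log2-fold change between 0.27 and 0.33 and the adjusted p up to 0.062. *Ift57*, a peripheral IFT-B gene, was at 0.28 ± 0.09 (adjusted p = 0.058), and *Ift88*, a core scaffold gene, was at 0.01 ± 0.10. The kinesin genes had 0 of 3 passing, with *Kif3a* at -0.10 ± 0.07 and *Kif17* at 0.05 ± 0.17 from only 3.7 to 5.1 CPM in these 6 retinas.

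**Figure D3:**
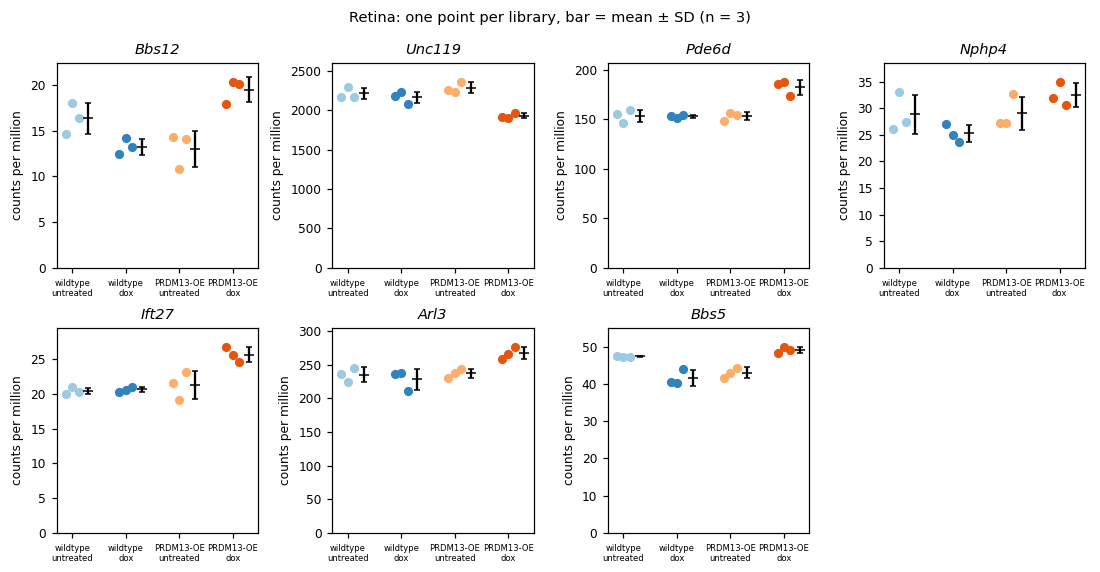
CPM of 7 members past the threshold in each of the 12 retinas, with mean ± SD beside each group of 3 and each axis starting at 0. PRDM13-OE dox retinas lie outside the range of wildtype dox retinas in every panel, above it for 6 genes and below it for *Unc119*.

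Counting members whose 2 groups did not overlap gave 12 of 43 higher (27.9%) and 2 lower (4.65%), beside 16.4% and 15.4% of all genes tested. The 2 that were lower were *Unc119* and *Kif3b*, and *Kif3b* (named after its values were seen) did not pass the test at -0.17 ± 0.07.

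The sites of cilium and photoreceptor transcription factors were looked up in the promoters because they are sequence features that the choice of members did not use. RFX factors bind promoters of cilium genes, and CRX is the homeodomain factor of photoreceptors. In RefSeq promoters (GRCm38.p6, 250 bases before to 50 after a start), 38 of 43 members matched with 45 promoters. The letters GTTGCC of the RFX site stood on either strand in 15 of these (33.3%), from 14 genes, against 12.5% of all 32851 promoters. The CRX core TAATCC stood in 3 (6.67%) against 7.06%. Only *Bbs1* held both, at separate positions, and a match is a description of letters only.

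GTTGCC was held by 14 of the 38 matched members, and 4 of these were among the 6 matched members that rose. TAATCC was held by *Unc119*, and also by *Bbs1* and *Rpgrip1*, which did not pass. Whether either site goes with a direction was not tested. The stretches below show the 4 that rose and *Unc119*, 30 bases each read 5′ to 3′ on the gene's strand. The matched letters or their reverse complement are in capitals.
Ift27, chr15:78174073-78174102, minus strand: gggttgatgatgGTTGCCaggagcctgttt
Nphp4, chr4:152478131-152478160, plus strand: tggtgcatcccgGTTGCCagctgatgttgg
Bbs5, chr2:69647191-69647220, plus strand: gatgtcgtgacaaagccggcgcGTTGCCtt
Pde6d, chr1:86582751-86582780, minus strand: actagtgtgcccGGCAACaagagcaggcat
Unc119, chr11:78345454-78345483, plus strand: tttgctgtttctGGATTAccaggccttgaa
The site of *Ift27* begins at base -9 from the start and that of *Unc119* at base -118, while those of *Nphp4*, *Bbs5* and *Pde6d* begin at bases 2, 43 and 18 of the transcript.

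Among the factors themselves, the 14 listed genes had 13 tested in this comparison, with 3 higher and 3 lower, beside 5.01% and 7.51% of all genes. The median log2-fold change over the list was -0.04. *Rfx3* was higher by 0.51 ± 0.12 (adjusted p = 0.016) and *Rfx1* by 0.38 ± 0.09 (adjusted p = 0.017), on the log2 scale. *Nr2e3* and *Prdm1* were lower by the study's rule, at -1.40 ± 0.10 and -1.24 ± 0.12. These genes are named after their values were seen. The part of these factors or their sites in the member values was not tested.

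The related genes of the pathway had calls in both directions, in a comparison where 5.01% of all genes were higher and 7.51% lower. Of 27 IFT, BBS and motor genes with other symbols, 3 rose and 1 fell. Of 35 other transition zone and basal body genes, 4 rose and 5 fell. Of 18 genes of the photoreceptor axoneme and its kinases, 5 rose and 5 fell, and 1 passed the study's rule: *Cdhr1*, a cadherin at the base of the outer segment, at -1.95 ± 0.06. *Rp1*, which bundles the axoneme's microtubules, was at -0.99 ± 0.05 and was named after its value was seen.

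Induction was also followed within PRDM13-OE mice, dox against untreated, in a comparison that shares its PRDM13-OE dox retinas with the one above. *Bbs12*, *Ift122*, *Pde6d* and *Ift57* rose and *Unc119* fell, so 4 of 43 members (9.30%) were higher and 1 (2.33%) lower, beside 2.04% and 2.96% of all genes. Rod markers summed to 58711 to 65905 CPM with dox and 76770 to 83712 without, with 9 of 14 genes lower and 0 higher, and cone markers to 919 to 999 against 1648 to 1763, with 8 of 12 lower and 1 higher. Endothelial markers summed to 123 to 146 CPM against 237 to 288, with 2 of 5 lower, and red blood cell genes to 1 against 28 to 64, with 5 of 5 lower. Bipolar cell markers summed to 1314 to 1445 CPM against 1436 to 1563, with 3 of 8 lower and 1 higher. Müller glia markers had 2 of 6 higher and 1 lower, lens crystallins 3 of 15 lower and 0 higher, and pigment epithelium markers 0 of 10 in either direction. The part of these cell types in the member values was not tested. Untreated PRDM13-OE retinas had 14.3, 10.8 and 14.1 CPM of *Bbs12*, 2266, 2233 and 2366 of *Unc119*, and 149, 157 and 154 of *Pde6d*. The log2-fold changes were 0.58 ± 0.12 for *Bbs12* (adjusted p = 0.015), -0.25 ± 0.04 for *Unc119* (adjusted p = 0.0049) and 0.25 ± 0.06 for *Pde6d* (adjusted p = 0.026). *Ift122*, an IFT-A gene, was at 73.4, 78.9 and 73.1 CPM with dox and 61.7, 63.8 and 59.3 without, a log2-fold change of 0.28 ± 0.06 (adjusted p = 0.023). *Ift57* was at 30.7, 31.8 and 30.7 CPM with dox and 26.1, 24.9 and 24.9 without, a log2-fold change of 0.29 ± 0.08 (adjusted p = 0.043). On leaving out each of the 6 retinas in turn *Unc119* passed in 6 fits, *Bbs12* in 4, *Pde6d* in 3, *Ift122* in 2 and *Ift57* in 0, and without PRDM13-OE dox retina 2 the count of members higher was 0.

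Dox alone and genotype alone changed 0 members each (edgeR). In wildtype retinas dox gave 0 calls, beside 0.00485% of all genes, with 9 members lower and 0 higher at an unadjusted p under 0.05 (9.32% of all genes in either direction) and 0 calls by DESeq2. Log2-fold changes were below 0 for 36 members and above 0 for 7, with a median of -0.07 against -0.007 over all genes. With no filter 3 members passed, all lower, beside 384 genes higher and 204 lower of 28401. In untreated retinas genotype gave 0 calls, beside 0.00484% of all genes, with 6 members lower and 0 higher at an unadjusted p under 0.05 (3.76% of all genes in either direction) and 0 calls by DESeq2. Log2-fold changes were below 0 for 30 members and above 0 for 13, with a median of -0.06 against -0.001 over all genes.

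Whether the genotype difference depended on dox was tested as an interaction over all 12 retinas. *Bbs12* and *Bbs5* passed, both upward, which is 4.65% of the members beside 1.19% of all genes higher and 1.83% lower. In the same test 5 of 14 rod markers were lower and 0 higher, and 7 of 12 cone markers were lower and 2 higher. For *Bbs12* the genotype difference was -0.32 in untreated retinas and 0.55 with dox, and the interaction was 0.88 ± 0.17 (adjusted p = 0.0057). Untreated wildtype retinas had 14.6, 18.0 and 16.5 CPM of *Bbs12*, so they overlapped the PRDM13-OE dox retinas at 18.0 and stood above the wildtype dox retinas. For *Bbs5* the genotype difference was -0.13 untreated and 0.24 with dox, and the interaction was 0.38 ± 0.09 (adjusted p = 0.024). Untreated wildtype retinas had 47.6, 47.1 and 47.3 CPM of *Bbs5*, close below the PRDM13-OE dox retinas. *Unc119* was at -0.21 ± 0.06 (adjusted p = 0.057), and at an unadjusted p under 0.05 13 members were higher and 1 lower, beside 14.4% of all genes in either direction. Leaving out each retina in turn kept *Bbs12* in all 12 fits and *Bbs5* in 6.

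The retina was then compared with the eye cup of the same untreated wildtype mice, with mouse as a block, to see where these genes are expressed. The retina was higher for 30 of 43 members (69.8%) and lower for 3 (6.98%), beside 25.7% and 29.1% of all genes. By the study's rule 23 (53.5%) were higher and 1 (2.33%) lower, beside 17.3% and 23.5%. The median log2-fold change was 1.06 over the members and -0.01 over all genes. Scaling by library size moved the median of all genes to 0.28 and gave 33 members higher, beside 32.7% of all genes, and 0 lower. All 14 rod markers were higher in the retina by the study's rule and all 10 pigment epithelium markers lower, and these eye cups still held 26679, 3935 and 13704 CPM of rod markers.

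Counts past the threshold varied by role, and a difference between roles was not tested. All 8 BBSome genes were past the study's rule, with a median log2-fold change of 2.00 and a range of 1.31 to 2.47, and *Bbs5* was at 17.9, 17.4 and 17.8 FPKM in retinas and 4.78, 2.22 and 3.69 in eye cups. All 3 kinesin genes were past it, with *Kif3a* at 1.30 ± 0.15 (adjusted p = 0.00089) and *Kif17* at 1.57 ± 0.41 (adjusted p = 0.019). Of the 11 IFT-B genes, 3 were higher, 1 was lower and 7 did not pass. The 3 higher were *Ift81*, a tubulin-binding core gene, at 1.81 ± 0.17, *Ift80* at 1.68 ± 0.17 and *Ift88* at 0.55 ± 0.18 (adjusted p = 0.043). The call of *Ift88* held in 0 of the 3 fits that left out a mouse and not by DESeq2 (adjusted p = 0.058). *Ift20*, by contrast, was at 23.6, 24.4 and 23.0 FPKM in retinas and 26.2, 26.0 and 32.3 in eye cups.

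The connecting cilium group also held large differences from the eye cup. *Lca5* was at 11.8, 9.53 and 9.53 FPKM in retinas and 3.37, 0.786 and 1.18 in eye cups, a log2-fold change of 2.77 ± 0.35 (adjusted p = 0.0011). *Cep290* was at 5.04, 4.53 and 4.39 FPKM against 0.956, 0.444 and 0.849, a log2-fold change of 2.68 ± 0.23 (adjusted p = 0.000315). *Rpgrip1* was at 2.57 ± 0.48 (adjusted p = 0.0051). On leaving out 1 mouse, *Rpgrip1* moved to 3.23 without mouse 1 and 1.89 without mouse 2 (adjusted p up to 0.034 over the 3 fits), and *Lca5* to 3.36 without mouse 1. The tissues did not overlap for any of these. *Rpgr* and *Spata7*, at 1.20 ± 0.24 and 0.93 ± 0.20, leaned less.

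*Ift27* was among the 3 members lower in the retina, at a log2-fold change of -0.51 ± 0.15 (adjusted p = 0.027). It had 6.44, 6.58 and 6.51 FPKM in retinas and 9.22, 8.39 and 10.3 in eye cups, without overlap. *Ift27* was also among the 7 members that rose in PRDM13-OE dox retinas. Without untreated wildtype mouse 1 or mouse 3, 0 members were lower, and without mouse 3 *Unc119* (1.60, adjusted p = 0.060) and *Kif17* (1.84, adjusted p = 0.065) no longer passed. In the group that carries lipid-modified cargo, *Arl13b* (1.89 ± 0.19), *Unc119* (1.43 ± 0.33), *Pde6d* (0.89 ± 0.16) and *Arl3* (0.88 ± 0.16) were higher in the retina and *Rp2* did not pass, at -0.19 ± 0.15.

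**Figure D4:**
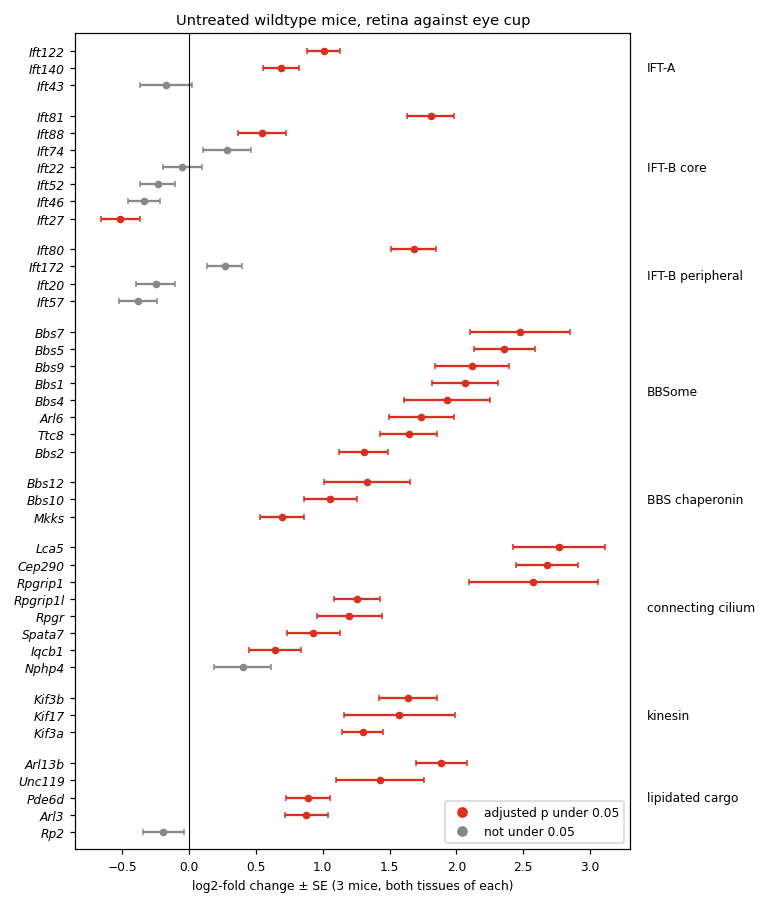
log2-fold change of 41 members between retina and eye cup of 3 untreated wildtype mice, with its SE, grouped by role, red where the adjusted p was under 0.05. All BBSome and kinesin points are red and above 1, most IFT-B points lie near 0, and *Ift27* is the red point below 0.

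In eye cups, comparisons between groups gave 0 members (edgeR). In data simulated for PRDM13-OE dox against wildtype dox eye cups, 0 of 200 changes of log2-fold 1 were recovered. The counts of 0 therefore do not show that members did not change. PRDM13-OE dox against wildtype dox gave 0 calls beside 0.0184% of all genes, with 1 member higher and 1 lower at an unadjusted p under 0.05 (8.24% of all genes in either direction) and 0 by DESeq2. Without PRDM13-OE dox eye cup 3, whose rod markers were 41666 CPM against 13647 and 6672 in the other eye cups of its group, 3 members passed, all lower (6.98%), beside 6.91% of all genes lower in that fit. Dox in PRDM13-OE eye cups gave 0 calls beside 0.0139% of all genes, and genotype in untreated eye cups gave 0 beside 0.0% of all genes, both with 0 members at an unadjusted p under 0.05 (4.14% and 1.87% of all genes) and 0 by DESeq2. Dox in wildtype eye cups gave 0 calls beside 0.0% of all genes, with 15 members higher and 4 lower at an unadjusted p under 0.05, beside 29.9% of all genes in either direction. DESeq2 called 9 there, all higher, beside 10.7% of all genes higher, and rod markers were 26990 to 51850 CPM in the wildtype dox eye cups and 3935 to 26679 in the untreated ones. Without untreated wildtype eye cup 1, edgeR also called 9 members higher, beside 9.36% of all genes. The genotype difference did not pass a test for differing between tissues of the dox mice for any member (0 calls, beside 0.0% of all genes, 1 member and 5.32% of all genes at an unadjusted p under 0.05, 0 members by DESeq2). Without PRDM13-OE dox mouse 3, 2 members (4.65%) passed upward, beside 5.01% of all genes.

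Member levels in the eye cups differed widely between libraries, as did the amount of rod RNA. The 8 BBSome genes summed to 116 CPM in untreated wildtype eye cup 2, which had the fewest rod counts, and to 479 in PRDM13-OE dox eye cup 3, a range of 4.12 times, whereas over the 12 retinas their sum varied by 1.17 times. The connecting cilium genes varied by 2.78 times over eye cups. The sum of the 7 core IFT-B genes varied by 1.36 times, from 157 to 213 CPM. Within it *Ift81* varied by 2.95 times, from 9.95 to 29.3 CPM, and each other core gene by 1.73 times or less. The lowest value of 16 of the 43 members was in untreated wildtype eye cup 2, and the highest of 17 was in PRDM13-OE dox eye cup 3. *Rpgrip1* ranged from 12.3 to 107 CPM over eye cups, *Unc119* from 383 to 1794 and *Rp2* only from 14.2 to 19.3. The part of the rod RNA in the member values was not tested.

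**Figure D5:**
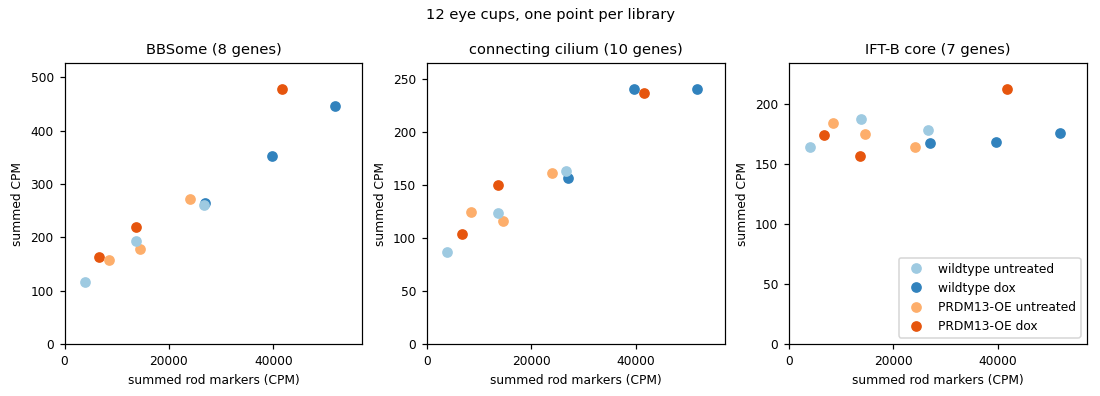
Summed CPM of BBSome, connecting cilium and core IFT-B genes in each of the 12 eye cups, against the summed CPM of 14 rod markers, colored by group. The 3 eye cups with the most rod counts have the 3 highest BBSome sums, up to 479 CPM, while core IFT-B sums stay between 157 and 213.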

How the data were processed

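For the authors, Novogene sequenced the libraries, mapped reads to GRCm39 and quantified genes. Per the labels' processing notes the tools were CASAVA and HISAT2, and the counting tool and the strand setting are not given in the sources used here. What the authors deposited are raw counts of reads for each gene, and FPKM values made from them with the gene length. Their fold changes, p-values and group means were not used. The replicates are separate mice, 1 library per tissue and mouse.

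The counts went into edgeR 4.0.16 (R 4.3.3, TMM, quasi-likelihood test without robust fitting). A gene needed a sum of 10 counts or more in the fitted libraries, and p-values were adjusted by Benjamini-Hochberg over all genes tested. Members were counted at an adjusted p under 0.05, and also by the study's rule, which adds a log2-fold change past 1. CPM were scaled by TMM over the 12 libraries of a tissue. Retina and eye cup with the same number, genotype and treatment are from 1 mouse, which was a block in comparisons of tissues. Mice of different groups share only a number. The steps were tested on simulated data with 200 changed genes. For the dox retinas, 186 changes of log2-fold 1 and 200 of log2-fold 2 were recovered. For the dox eye cups, 0 of log2-fold 1 and 145 of log2-fold 2 were recovered. Gene positions overlapped GENCODE release 39 for 43 of 43 members, and 25 members overlap another gene. Figures used python 3.11.15 and matplotlib 3.10.9.

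Alternatives were DESeq2 1.42.0, library size scaling, no filter, filterByExpr, robust fitting, all 12 libraries of a tissue, a replicate block or none, a lens crystallin covariate, a fold cutoff and leaving out each library. Leaving out both lens-rich wildtype dox retinas was chosen after seeing the data. The members, roles and lists were chosen with earlier results of these data known. Named with values are members past the threshold in the comparison of dox retinas, a preset list of 13 members, up to 5 members with the smallest p in each other comparison, listed pathway genes past the study's rule, and the highest and lowest member by FPKM of each role. Counts cover all members, but single values of 2 members are not reported here. Others are said to be named after their values were seen.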

Additional observations from a re-analysis of the deposited data

Results flagged for a closer look

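For *Bbs12*, the genotype difference in retina changed with dox, by a test of that difference over 12 retinas: the interaction was 0.88 on the log2 scale (edgeR, adjusted p = 0.0057). *Bbs5* was singled out by the same test, with an interaction of 0.38 (adjusted p = 0.024). In both genes, untreated wildtype retinas had higher values than wildtype dox retinas.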

How the results depend on the processing

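In PRDM13-OE dox against wildtype dox retinas, members higher numbered 14 by library size, 0 with the lens crystallin covariate, 2 without both lens-rich retinas and 0 past a log2-fold change of 1, and members lower numbered 0, 0, 0 and 0 under these and 2 with no filter or robust fitting. Leaving out each retina gave 2 to 8 higher and 1 to 3 lower: 4, 2 and 4 higher without PRDM13-OE dox retina 1, 2 or 3, and 3 lower without wildtype dox retina 1. *Bbs12* and *Unc119* passed in 6 of 6 such fits, *Pde6d* and *Nphp4* in 5 (lost without PRDM13-OE dox retina 2, at 0.22 and 0.30), *Ift27* and *Arl3* in 2 and *Bbs5* in 1. In PRDM13-OE retinas, dox against untreated, members higher numbered 2 with a replicate block, 0 past the fold cutoff and 0 to 3 on leaving out a retina (1, 0 and 1 without PRDM13-OE dox retina 1, 2 or 3, and 2 without PRDM13-OE untreated retina 1 or 3). Members lower numbered 2 by DESeq2, 3 with no filter, 2 with robust fitting, 2 with a replicate block, 0 past the fold cutoff and 1 to 2 on leaving out a retina (2 without PRDM13-OE untreated retina 1). The numbers do not pair mice of different groups, and the block moved no other count by over 1.5 times. For the interaction, members higher numbered 5 by DESeq2, 6 by library size, 4 with no filter, 4 with robust fitting, 0 past the fold cutoff and 1 to 3 on leaving out a retina, 1 of them without PRDM13-OE dox retina 1, 2 or 3, PRDM13-OE untreated retina 1 or wildtype dox retina 1. Members lower numbered 1 by DESeq2, with no filter or with filterByExpr, and 0 to 1 on leaving out a retina (1 without PRDM13-OE untreated retina 2 or wildtype untreated retina 2). Dox in wildtype retinas gave 3 members with no filter. Dox in wildtype eye cups gave 9 by DESeq2, 2 by library size, 3 with no filter and 0 to 9 on leaving out an eye cup (9 without wildtype untreated eye cup 1). Genotype in dox eye cups gave 0 to 3 (3 lower without PRDM13-OE dox eye cup 3, beside 6.91% of all genes lower). Genotype by tissue gave 0 to 2 (2 higher without PRDM13-OE dox mouse 3, beside 5.01% of all genes higher). For retina against eye cup, 23 to 28 members were higher on leaving out a mouse, and members lower numbered 0 by library size, 5 with filterByExpr, 5 with no replicate block, 1 past the fold cutoff and 0 to 3 on leaving out a mouse. The cause of these shifts was not tested. With 3 libraries a group, members at a few CPM, such as *Kif17*, have wide errors, and differences of the size found here could be missed in eye cups.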
